A study of Caenorhabditis elegans with 6 samples.

Results

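Cytochrome P450 enzymes are heme-containing monooxygenases that insert oxygen into fatty acids, sterols and foreign compounds, and many draw electrons from a NADPH-dependent reductase. In C. elegans, as in mammals, the family is split between enzymes that clear xenobiotics, many of them made in the intestine and induced by the compounds themselves, and enzymes that make or modify endogenous lipids. The genes described here are those whose WormBase symbol is cyp- followed by a number. There are 74 of them among the 46756 identifiers counted, all protein coding, in 25 subfamilies (the symbol up to its capital letter).

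Whole hermaphrodites of the strain ACH93 were compared on adulthood day 2, in 3 libraries of the 10-worm population (10 worms per plate) and 3 libraries of solitary worms (1 worm per plate). The experiment was made to find receptor genes whose expression depends on the density of hermaphrodites. Both conditions carried the same reporters, wacIs1 and wacIs14, in which the myo-3 promoter drives a red proteasome subunit and a green mitochondrial protein in body wall muscle, and both were grown at 20 °C on Escherichia coli OP50. The libraries are labelled as biological replicates, and neither the number of animals in each nor whether replicates came from separate cultures is given in the sources used here, so p-values measure the spread between these libraries only.

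The libraries of the 10-worm population held 57077055 to 62794403 counts on genes, and those of solitary worms 55176436 to 62269301. Replicates of the same condition differed by more than sampling noise (chi-square per degree of freedom 6.28 to 25.05). None of the 30 marker genes tested for intestine, oocyte and germline, sperm, early embryo, hypodermis, body wall muscle and neurons passed an adjusted p of 0.05 in edgeR's test of the 6 libraries, and the sperm gene msp-3 was at 0 in all libraries. The hypodermal collagen gene rol-6 stood apart by library. It had 1, 4 and 154 counts in the 10-worm population and 3, 135 and 4 in solitary worms. Thus 10-worm library 3 and solitary library 2 carried nearly all of it. The hypodermal marker dpy-7 had 179, 155 and 178 counts in the 10-worm population and 139, 270 and 12 in solitary worms. Its lowest count was in solitary library 3, and the part of this difference in the P450 levels was not tested. Summed intestinal markers were 1341 to 1483 CPM (counts scaled to a common library total) in the 10-worm population and 1374 to 1793 CPM in solitary worms. In RNA from whole animals, fewer cells of a type and less RNA per cell cannot be told apart.

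The family took 0.100%, 0.0991% and 0.105% of the counts in the 10-worm population, against 0.105%, 0.107% and 0.0969% in solitary worms. The 95% Wilson interval of 10-worm library 1, which covers counting error only, was 0.0994% to 0.101%. The means were 0.102 ± 0.00339% and 0.103 ± 0.00518% (SD, n = 3 each). The ranges overlapped, and the lowest share of all was in solitary library 3. At this depth 11 members averaged at least 1000 counts a library, 31 averaged at least 100 and under 1000, and 32 averaged fewer than 100. The 5 members with most counts took 53.7% of all P450 counts, and the 12 with most took 79.6%.

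Levels between genes were compared per exonic length, as counts per kilobase of exon in each library scaled to a common total (RPKM). The most abundant P450 gene was cyp-13A5, whose subfamily resembles the CYP3A drug-metabolizing enzymes of mammals, with 81.9, 77.0 and 84.4 RPKM in the 10-worm population and 88.1, 73.6 and 71.6 RPKM in solitary worms. Next came cyp-31A2, with 77.8, 72.8 and 72.0 RPKM in the 10-worm population and 80.4, 84.4 and 75.04 RPKM in solitary worms. Its near relative cyp-31A3 averaged 61.2 ± 2.68 RPKM in the 10-worm population and 63.8 ± 3.90 RPKM in solitary worms (SD, n = 3 each). cyp-31A2 and cyp-31A3 act redundantly to make the lipid-rich layer that seals the eggshell. cyp-31A5, the remaining member of the subfamily, averaged 56.7 RPKM over the 6 libraries. Together the 3 cyp-31A genes took 30.3%, 29.7% and 28.4% of the P450 counts of the 10-worm libraries and 30.0%, 30.0% and 30.7% of those of the solitary libraries.

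A few of the xenobiotic-induced genes, all of cyp-35 subfamilies, were also abundant. cyp-35A2, whose subfamily is strongly induced by foreign compounds and also affects fat storage, averaged 70.0 RPKM over the 6 libraries. cyp-35C1 averaged 43.7 RPKM and cyp-35A3 31.2 RPKM. The mitochondrial-type enzyme cyp-44A1 averaged 39.9 RPKM and was the steadiest of the abundant genes, at 40.7, 39.3 and 39.1 RPKM in the 10-worm population and 39.1, 40.0 and 41.2 RPKM in solitary worms. Below these stood cyp-33C8 at 18.7, cyp-25A2 at 14.1, cyp-37A1 at 11.2 and cyp-34A8 at 8.05 RPKM. In this order each gene from cyp-13A5 to cyp-31A5 overlapped with the next in its range over libraries, as did cyp-35C1, cyp-44A1 and cyp-35A3 among themselves, and cyp-25A2 with cyp-37A1. The ranges of the other neighbours in the order were separate.

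**Figure D1:**
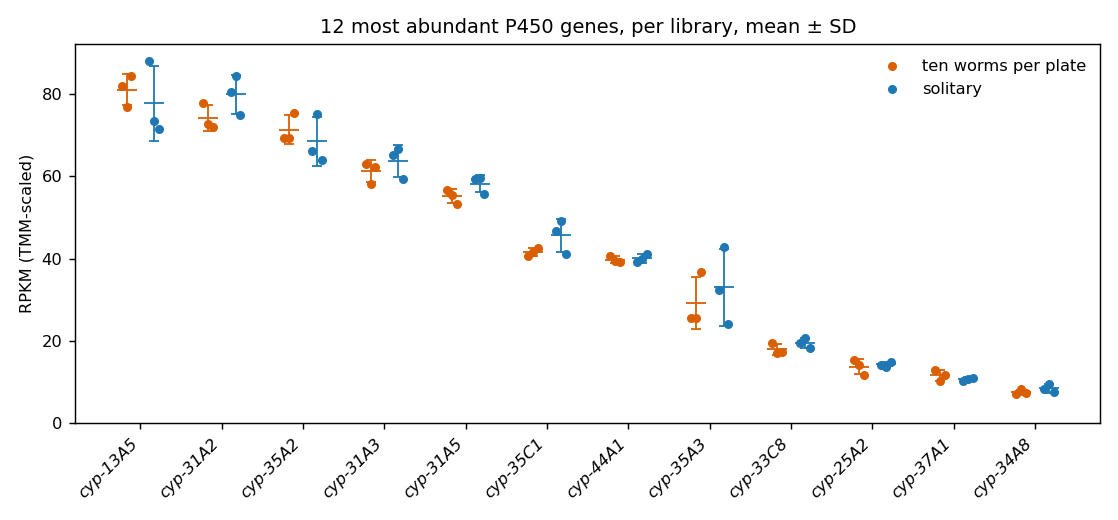
RPKM of the 12 most abundant P450 genes, with 1 point per library, the mean as a dash and the SD as a bar, for the 10-worm population (orange, left of each pair) and solitary worms (blue, right). The conditions overlap for every gene plotted, and cyp-35A3 has the widest spread, from 24.1 RPKM in solitary library 3 to 42.8 RPKM in solitary library 2.

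The genes lie mostly on chromosome V (41 members), with 12 on II, 7 on IV, 7 on X, 6 on III and 1 on I. In 11 places members are direct neighbours of each other, and these runs hold 38 of the 74 genes. Levels differed widely inside the runs. The longest run, cyp-13A2 to cyp-13A8, covers positions 9783384 to 9807569 of chromosome II (WBcel235), and within it cyp-13A5 (79.4 RPKM) stood 496-fold above cyp-13A3 (0.160 RPKM). cyp-35A2 (70.0 RPKM) stood 303-fold above its neighbour cyp-35A1 (0.231 RPKM), between positions 7359929 and 7364182 of chromosome V. Among cyp-35A5, cyp-35B1, cyp-35B2 and cyp-35B3, also on V, each level was below the one before it, from 3.87 RPKM of cyp-35A5 through 0.551 and 0.0749 to 0.00945 RPKM of cyp-35B3, which had 5 counts in all. The highest member of a run stood at least 3.06-fold above its lowest, the smallest such ratio being that of cyp-13A12 over cyp-13A11. Single neighbours could be alike, as were cyp-14A1 (2.00 RPKM) and cyp-14A2 (2.03 RPKM). Only uniquely placed reads were counted, so reads shared by near-identical copies can be missing from these levels, and how many is not known here.

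**Figure D2:**
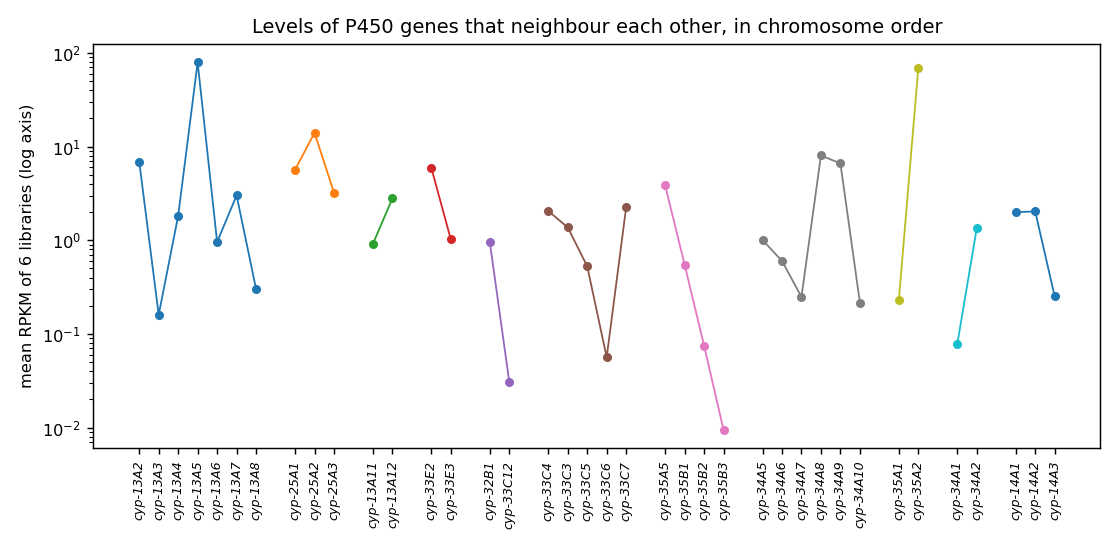
Mean RPKM over 6 libraries (log axis) of the 38 P450 genes that neighbour one another, in chromosome order, with a line joining the genes of each of the 11 runs. The ratio of the highest to the lowest member of a run is 3.06-fold to 496-fold.

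The comparison of growth conditions was made with edgeR's quasi-likelihood test on all 18428 genes with at least 10 counts over the 6 libraries, with p-values adjusted over all of them by the method of Benjamini and Hochberg. Of the 74 P450 genes, 71 were tested. cyp-25A6, cyp-33B1 and cyp-35B3 had 4, 5 and 5 counts in total and were not. No P450 gene passed an adjusted p of 0.05, where 0.239% of all genes did, and none passed it together with an absolute log2 fold change above 1, where 0.0109% of all genes did. At an unadjusted p under 0.05 there were 5 P450 genes, which is 7.04% of those tested against 11.9% of all genes. All 5 were lower in the 10-worm population, where 6.71% of all genes were lower and 5.19% higher at that p. DESeq2 gave an adjusted p to 31 of the 71 and called none of them (background 4.76%). It gave no adjusted p to cyp-14A1, cyp-14A2 and cyp-35D1. At an unadjusted p under 0.05 DESeq2 had 5 (background 10.3%), 4 lower (background 5.97%) and 1 higher (background 4.34%). The higher gene was cyp-37B1, and cyp-35C1 did not pass (DESeq2's unadjusted p = 0.061). The log2 fold change (10 worms over solitary) was negative for 45 members and positive for 26, that is 63.4% lower against 49.4% of all genes, with a median of -0.08 against 0.00 over all genes. The median 95% interval reached 0.27 log2 units to either side for members with at least 100 counts on average and 0.73 for the rest. For 28 of the 42 members in the first class the whole interval lay within 0.5 log2 units of no change.

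**Figure D3:**
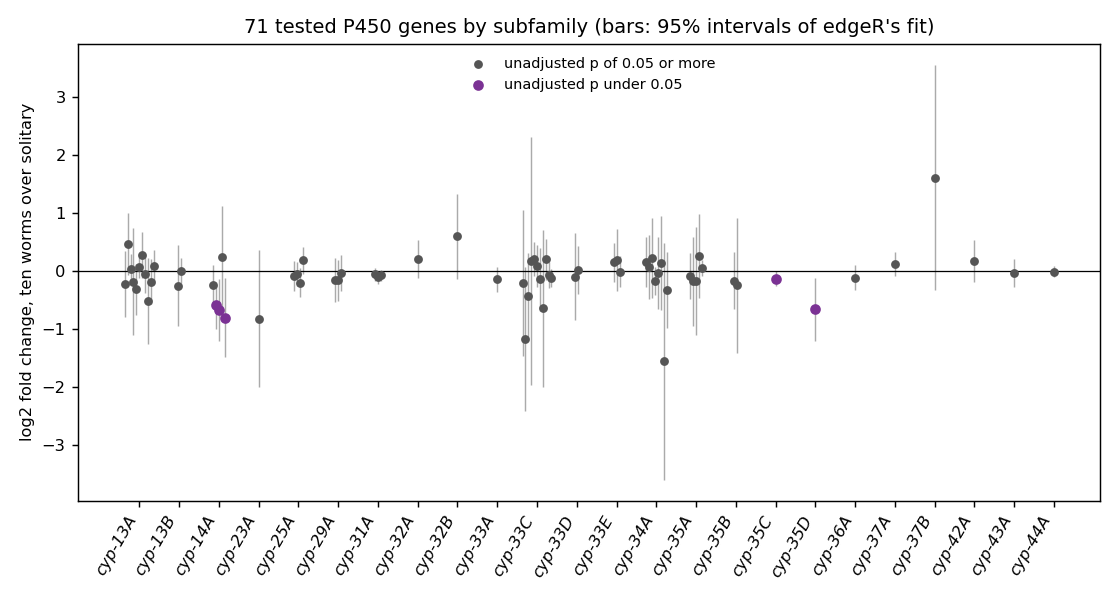
Log2 fold change (10-worm population over solitary worms) of the 71 tested P450 genes with the 95% interval of edgeR's fit, grouped by subfamily. Purple points mark the 5 genes with an unadjusted p under 0.05, 3 of them in cyp-14A, and no gene passes after adjustment.

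The lowest unadjusted p-values were in cyp-14A, a subfamily of 5 genes related to the CYP2 enzymes of mammals, 4 of them close together between positions 13265041 and 13284197 of the X chromosome and 1, cyp-14A5, on V. cyp-14A1 had 2.32, 2.49 and 2.52 CPM in the 10-worm population and 3.86, 4.50 and 2.69 CPM in solitary worms. Its conditions did not overlap, but solitary library 3 lay close above the 10-worm libraries. The log2 fold change was -0.59 (SE 0.18), with an adjusted p of 0.229, the smallest of the family. cyp-14A2, its neighbour, had 2.43, 2.17 and 2.59 CPM in the 10-worm population and 4.12, 4.97 and 2.42 CPM in solitary worms, with a log2 fold change of -0.68 (SE 0.24, adjusted p = 0.304). Here solitary library 3 fell inside the 10-worm range. cyp-14A4 had 0.451, 0.941 and 0.529 CPM in the 10-worm population and 1.10, 1.43 and 0.823 CPM in solitary worms (log2 fold change -0.80, adjusted p = 0.340). cyp-14A5, the most abundant of the subfamily at 7.53 RPKM, had a log2 fold change of -0.24, and cyp-14A3, the third neighbour of cyp-14A1 and cyp-14A2, had 0.25. Summed over the subfamily, the 10-worm libraries had 16.2, 18.0 and 15.9 CPM and the solitary libraries 22.002, 26.8 and 16.4 CPM.

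In cyp-35D1, as in cyp-14A1 and cyp-14A2, the highest values were those of solitary libraries 1 and 2. This enzyme hydroxylates the anthelmintic thiabendazole, and its induction by that compound needs the nuclear receptor NHR-176. It had 2.39, 1.90 and 2.18 CPM in the 10-worm population and 4.37, 3.73 and 2.12 CPM in solitary worms, a log2 fold change of -0.66 (SE 0.24, adjusted p = 0.325). Solitary libraries 1 and 2 were above all others, while solitary library 3 lay among the 10-worm libraries. nhr-176 itself had 6.40, 6.55 and 7.13 CPM in the 10-worm population and 7.70, 7.63 and 6.41 CPM in solitary worms (adjusted p = 0.758). cyp-35C1 differed less, with 62.4, 63.9 and 65.3 CPM in the 10-worm population against 71.8, 75.3 and 63.3 CPM in solitary worms (log2 fold change -0.13, SE 0.06, adjusted p = 0.409).

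Markers of the intestine, where many P450 genes are expressed, also summed to most in solitary libraries 1 and 2. Their summed level was 1483, 1468 and 1341 CPM in the 10-worm population and 1793, 1686 and 1374 CPM in solitary worms, with solitary library 3 inside the range of the 10-worm libraries. Most of this sum was asp-1, a gut aspartic protease, with 1047, 1012 and 892 CPM in the 10-worm population and 1292, 1210 and 954 CPM in solitary worms (log2 fold change -0.23, adjusted p = 0.541), whereas 3 of the 6 markers were lower and 3 higher, and elt-2, the gut GATA factor, had a log2 fold change of 0.26. None of the 6 was at or near 0. Without solitary library 3, asp-1 (log2 fold change -0.35, adjusted p = 0.0300) and act-5, an intestinal actin gene (-0.26, adjusted p = 0.0435), passed the adjusted threshold. With no count minimum act-5 did (adjusted p = 0.0367). The other intestinal markers did not pass with solitary library 3 left out. There vha-6 was lower in the 10-worm population (-0.12), and ges-1 (0.20, adjusted p = 0.0811), elt-2 (0.34) and ifb-2 (0.10) were higher. Summed hypodermal markers had 131 to 181 CPM in the 10-worm population and 190 to 219 CPM in solitary worms, without overlap. Nearly all of this sum was col-19, an adult collagen gene (log2 fold change -0.35, adjusted p = 0.434 with edgeR and 0.0220 with DESeq2). Of the 4 hypodermal markers, 2 were lower and 2 higher, with log2 fold changes of 0.24 for dpy-7, 0.19 for rol-6 and -0.01 for bli-1. The part of these markers in the levels of cyp-14A and cyp-35 genes was not tested.

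Whether these genes were called changed with solitary library 3 and with the count minimum. Without solitary library 3, 4 P450 genes had an adjusted p under 0.05, all lower in the 10-worm population, which is 5.63% of those tested against 2.17% of all genes in either direction and 1.5% lower. They were cyp-14A2 (log2 fold change -0.92, adjusted p = 0.0152), cyp-35D1 (-0.91, adjusted p = 0.0197), cyp-14A1 (-0.77, adjusted p = 0.0247) and cyp-35C1 (-0.20, adjusted p = 0.0437). None had an absolute log2 fold change above 1 (background 0.388%). At an unadjusted p under 0.05, 18 genes passed without that library, 16 of them lower, or 25.4% against 15.7% of all genes in either direction, and 22.5% against 8.97% lower. With the length trend removed as well, cyp-14A1, cyp-14A2 and cyp-35D1 passed the adjusted threshold (background 1.27%), and the same genes passed it in all 6 libraries when no count minimum was set (background 2.94%). Without 10-worm library 3 and solitary library 2, those with most rol-6 counts, no P450 gene passed either an adjusted p of 0.05 (background 0.00572%) or an unadjusted p of 0.05 (background 7.12%).

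**Figure D4:**
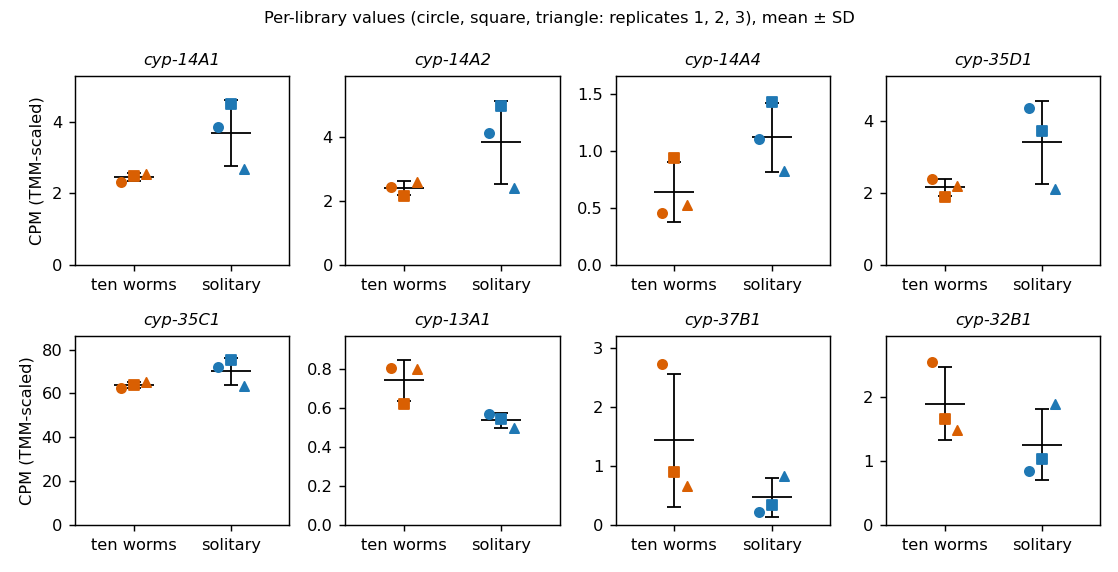
CPM per library of 8 P450 genes, for the 10-worm population (orange, left) and solitary worms (blue, right), with the mean as a dash and the SD as a bar. For cyp-14A2, cyp-35D1 and cyp-35C1 the triangle of solitary library 3 lies inside the range of the 10-worm libraries, and for cyp-37B1 10-worm library 1 (2.74 CPM) stands above all others.

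No gene higher in the 10-worm population had an unadjusted p under 0.05 in edgeR's test. The lead was cyp-13A1, with 50, 37 and 47 counts in the 10-worm population and 31, 33 and 29 counts in solitary worms (log2 fold change 0.47, SE 0.24, adjusted p = 0.483), and its conditions did not overlap. The largest fold change of the family was that of cyp-37B1, which had 170, 54 and 39 counts in the 10-worm population and 12, 21 and 49 counts in solitary worms. Its log2 fold change of 1.61 carried an SE of 0.77 and an adjusted p of 0.502, and without 10-worm library 1 the log2 fold change was 0.74 (adjusted p = 0.754), while without solitary library 3 it was 2.33 (adjusted p = 0.280). DESeq2 gave it an unadjusted p of 0.0035 and no adjusted p. Its exons overlap those of F28G4.2 on the opposite strand. cyp-32B1 had 158, 99 and 87 counts in the 10-worm population and 46, 63 and 110 counts in solitary worms (log2 fold change 0.60, adjusted p = 0.520), and without solitary library 3 its log2 fold change was 1.01 (adjusted p = 0.0851). In both of these genes 10-worm library 1 was the highest, solitary library 1 the lowest, and solitary library 3 inside the range of the 10-worm libraries. cyp-25A4 and cyp-13A6 differed by 0.18 and 0.28 log2 units (adjusted p = 0.540 and 0.595). In CPM, 8 members had no overlap between conditions, which is 11.3% of those tested against 18.3% of all genes. Of these, 4 were higher (cyp-13A1, cyp-13A6, cyp-25A4 and cyp-33C4), or 5.63% against 8.51% of all genes. The 4 lower were cyp-14A1, cyp-13A11, cyp-25A3 and cyp-33C1, or 5.63% against 9.83%. The separation of cyp-33C1 rests on few counts, and its unscaled counts touch at 7. Beside cyp-37B1, absolute log2 fold changes above 1 were reached by cyp-34A1 (0, 6 and 5 counts in the 10-worm population, 16, 14 and 2 in solitary worms) and cyp-33C1 (5, 7 and 2 counts, against 7, 11 and 13), with log2 fold changes of -1.56 and -1.17 and adjusted p-values of 0.555 and 0.450.

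Members with a known role gave no call over the 6 libraries with the count minimum. The eggshell gene cyp-31A2 had a log2 fold change of -0.11 (95% interval -0.22 to 0.00, adjusted p = 0.432), cyp-31A3 -0.06 and cyp-31A5 -0.08. Summed oocyte and germline markers lay at 7924 to 8400 CPM in the 10-worm population and 7781 to 8126 CPM in solitary worms, with overlap. Of the 6 markers, 5 were higher and 1 lower in the 10-worm population, with a median log2 fold change of 0.05. glp-1 did not overlap between conditions (log2 fold change 0.14, edgeR's adjusted p = 0.245, and 0.05 log2 units with the length trend removed). The part of these markers in the cyp-31A levels was not tested. Of the 12 xenobiotic-induced genes listed, 11 were tested, 8 of them lower and 3 higher, with a median of -0.13 (over all genes tested, 49.4% were lower and the median was 0.00) and none past the adjusted threshold. Of these, cyp-35C1 and cyp-35D1 had an unadjusted p under 0.05, as had 11.9% of all genes. cyp-35B1, which is raised in worms with low insulin signaling through DAF-16, had 0.871, 0.807 and 0.887 CPM in the 10-worm population and 1.03, 1.10 and 0.754 CPM in solitary worms. Of the epoxygenases that act on long-chain polyunsaturated fatty acids, cyp-33E2 had a log2 fold change of 0.15 and cyp-29A3 of -0.16. Of the genes tied to oxygen sensing, cyp-36A1, which acts downstream of EGL-9 and HIF-1, had -0.12, and cyp-13A12, which takes part in the response to reoxygenation, had 0.09. cyp-42A1 had 0.17, cyp-25A2 -0.05 and cyp-44A1 -0.01, the last with a 95% interval of -0.11 to 0.08.

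The median spread between replicates of one condition was wider for P450 genes than for genes at large. Among members with at least 20 counts on average, the median SD between replicates was 0.204 log2 units over 63 members, against 0.116 over 13626 genes. This median mixes levels of expression. At 100 to 1000 counts it was 0.196 for 31 members against 0.156 for 4035 genes, and at 1000 counts or more it was 0.0982 for 11 members against 0.0609 for 6456 genes. The widest spread was in cyp-37B1, cyp-14A3, cyp-35A4, cyp-13B1 and cyp-32B1. Solitary library 2 was the highest of the 6 libraries for 25 of 63 members, while 14.5% of all genes had their maximum there. Solitary library 3 was the lowest for 18 of 63, against 21.7% of all genes.

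The xenobiotic genes of the cyp-35A subfamily made the pattern visible. cyp-35A4 had 4.22, 5.48 and 6.31 CPM in the 10-worm population and 5.75, 8.90 and 3.43 CPM in solitary worms, so both the highest and the lowest value were from solitary worms. cyp-35A3 had 40.5, 40.8 and 58.2 CPM in the 10-worm population and 51.4, 67.8 and 38.3 CPM in solitary worms. Summed over cyp-35A, 10-worm library 3 (192 CPM) and solitary library 2 (205 CPM) were the highest, and the other libraries lay at 149 to 170 CPM. They are also the libraries with 154 and 135 counts of rol-6, whose part in these levels was not tested. cyp-34A9, which was found among genes downstream of DAF-16, was highest in solitary library 2 as well (15.2 CPM) and had 12.6, 8.50 and 12.4 CPM in the 10-worm population.

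**Figure D5:**
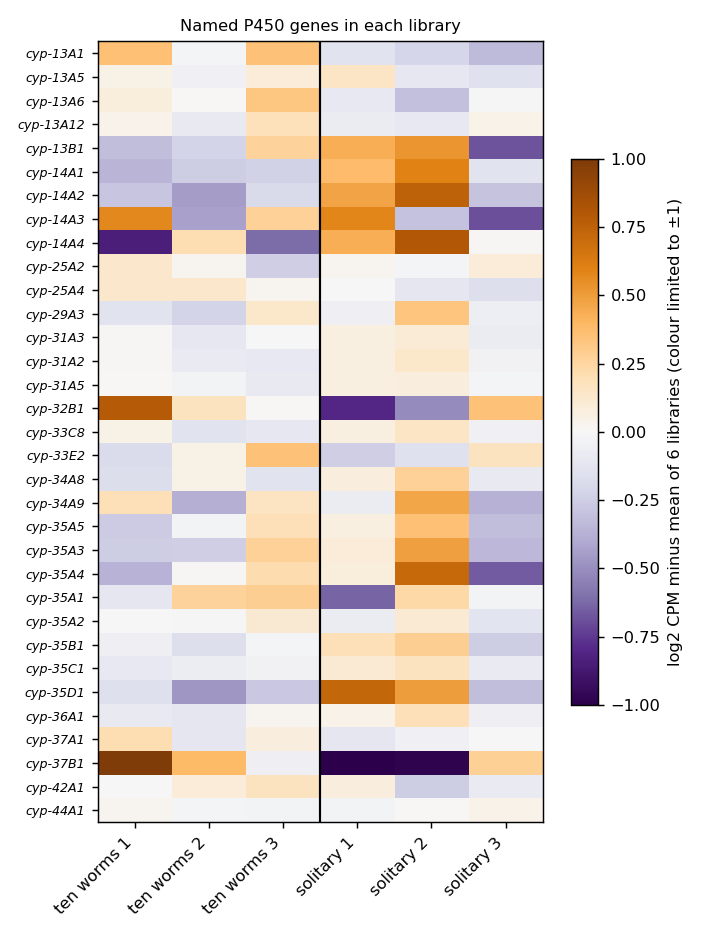
Log2 CPM minus the mean of the 6 libraries for 33 named P450 genes with at least 20 counts on average, with the 10-worm population left of the black line and solitary worms right of it (orange above and purple below the gene's mean, colours limited to 1 log2 unit). Solitary library 3 is below the mean for cyp-13B1, cyp-35A3 and cyp-35A4, where solitary library 2 is above it.

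The genes that serve the family gave no call either in that fit. emb-8, the NADPH-cytochrome P450 reductase that supplies P450s with electrons, had 165, 166 and 181 CPM in the 10-worm population and 182, 183 and 160 CPM in solitary worms (log2 fold change -0.03, adjusted p = 0.871). With cytb-5.1 and cytb-5.2, which encode cytochrome b5, and the heme transporters hrg-1 and hrg-4, 0 of 5 passed the adjusted threshold and 0 of 5 an unadjusted p of 0.05, with a median of -0.05. Of 10 regulators (nhr-8, nhr-176, mdt-15, ahr-1, aha-1, hif-1, egl-9, skn-1, daf-16 and elt-2) none passed after adjustment in that fit, and 7 were higher and 3 lower. An unadjusted p under 0.05 was found for mdt-15, a Mediator subunit needed for the induction of detoxification genes, with 145, 126 and 124 CPM in the 10-worm population and 117, 118 and 117 CPM in solitary worms (log2 fold change 0.17, adjusted p = 0.257, and 0.0236 with no count minimum). It was also found for the FOXO factor gene daf-16 (log2 fold change 0.22, adjusted p = 0.323). daf-16 had 137, 141 and 124 CPM in the 10-worm population and 107, 109 and 128 CPM in solitary worms, so its conditions overlapped. Its adjusted p was 0.0197 without solitary library 3, 0.00053 with no count minimum and 0.0851 with DESeq2. With the length trend removed, edgeR's unadjusted p was 0.135 for mdt-15 (log2 fold change 0.08) and 0.170 for daf-16 (0.14). daf-9, a P450 outside the cyp- names that makes the dafachronic acid hormones, was scarce, with 0.403, 0.353 and 0.648 CPM in the 10-worm population and 0.349, 0.476 and 0.206 CPM in solitary worms (adjusted p = 0.705).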

How the data were processed

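The authors trimmed paired-end reads with Trimmomatic 0.36, aligned them with STAR 2.5.2b to WBcel235, and counted unique reads on exons with featureCounts (Subread 1.5.2). The strand setting is not given in the sources used here. The deposited counts per gene, not normalized, were analysed. A second deposited table, of normalized values, was not used. Of 46756 identifiers, 43798 had a gene name. Positions and exonic lengths came from Ensembl release 115 of WBcel235. Exons of 23 P450 genes overlap a gene on the other strand (7 a protein-coding one) and 1 a gene on the same strand (cyp-44A1 with npp-24). How reads in these overlaps were assigned is not known here.

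All 18428 genes with at least 10 counts over 6 libraries were fitted with edgeR 4.0.16 in R 4.3.3 (TMM, robust quasi-likelihood F test, Benjamini-Hochberg adjustment). CPM and RPKM used TMM-scaled totals. The thresholds were an adjusted p of 0.05 and an absolute log2 fold change of 1. Standard errors are the log2 fold change over the square root of F. Alternatives were each library left out in turn, DESeq2 1.42.0 or only its size factors, library totals in place of TMM, filterByExpr or no filter in place of the count minimum, a block for replicate number, and removal of a trend with gene length. Leaving out both libraries with most rol-6 counts, and leaving out solitary library 3 with the length trend removed, were chosen after seeing the data. The fit was tested on simulated data. Named were the 12 most abundant members, 5 higher and 5 lower members with the smallest p, the 5 with the widest replicate spread and those with a known role. cyp-34A1, cyp-33C1 and other members outside this rule were chosen after their values were seen. Members and lists were chosen with earlier results of these data known.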

Additional observations from a re-analysis of the deposited data

How the results depend on the processing

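The number of P450 genes with an adjusted p under 0.05 was 0 with DESeq2 (background 4.76%). There cyp-14A1, cyp-14A2 and cyp-35D1 had no adjusted p, and unadjusted p-values of 0.0051, 0.0057 and 0.0094. The number was also 0 in edgeR with DESeq2's size factors, total counts without TMM and filterByExpr. The share of all genes past that threshold is not given here for those settings. The number was 0 as well with the length trend removed, where no gene at all passed (background 0%). The same number was 0 with both libraries with most rol-6 counts left out (background 0.00572%). It was 3 with no count minimum (cyp-14A1, cyp-14A2 and cyp-35D1, background 2.94%). It was also 3 without solitary library 3 once the length trend was removed (the same genes, background 1.27%). As each library was left out in turn it lay between 0 and 4, with 4 only without solitary library 3 (background 2.17%). The share of all genes called without any other library is not given here. The number with an unadjusted p under 0.05 was 9 with no count minimum (12.2% against 11.1% of all genes), 0 without both libraries with most rol-6 counts (background 7.12%), 18 without solitary library 3 with the length trend removed (25.4% against 12.7%), and 2 to 18 as each library was left out, below the background each time (2.82% to 8.45% against at least 8.94%) but without solitary library 3 (25.4% against 15.7%). Members without overlap between conditions numbered 12 to 32 as each library was left out, when fewer samples have to be separated. They were 45.1% against 34.1% of all genes without solitary library 3, and 16.9% to 22.5% against 26.6% to 29.3% without any other library. With the replicate number as a block, 0 P450 genes passed after adjustment and 5 before it (7.04% against 10.4% of all genes), with a median of -0.07. The numbers did not pair the libraries: deviations of same-numbered libraries correlated at 0.17, -0.30 and -0.27, and 10-worm library 1 alone correlated best with its own number. Across numbers, 10-worm library 3 correlated best with solitary library 2 (0.43), and 10-worm library 2 with solitary library 3 (0.26).

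The median log2 fold change kept its sign throughout, at -0.11 to -0.06 as each library was left out. The log2 ratio of the shares of counts was -0.02 and ranged from -0.06 to 0.01 as each library was left out. Of the 34 named genes that were tested, 10 changed sign somewhere among 16 alternatives, none with an adjusted p under 0.05. cyp-44A1 had 0.014 with total counts without TMM and 0.014 without solitary library 3 with the length trend removed. Without both libraries with most rol-6 counts, cyp-13A5 had -0.013, cyp-25A2 0.017, cyp-35A4 0.076, cyp-33E2 -0.044, cyp-34A9 0.15 and cyp-13A12 -0.018. As each library was left out, the range was -0.035 to 0.0053 for cyp-44A1, -0.37 to 0.048 for cyp-35A3, -0.13 to 0.047 for cyp-25A2, -0.0012 to 0.69 for cyp-14A3, -0.46 to 0.22 for cyp-35A4, -0.24 to 0.089 for cyp-35A5 and -0.21 to 0.23 for cyp-34A9. The causes were not tested. Depth limits the 32 members with fewer than 100 counts on average, whose intervals are wide.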
